A study of Capra hircus with 2 samples.

Results

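The prostaglandin pathway was followed through 6 genes in the skin of Liaoning cashmere goats: *PTGS1* and *PTGS2* (the cyclooxygenases), *PTGES* (a prostaglandin E synthase), *HPGD* (the main inactivating enzyme) and *PTGER2* and *PTGER4* (receptors for prostaglandin E2). They were chosen by symbol, and all 6 were found among the 27137 features of the matrix, under the gene identifiers 102170328 (*PTGS1*), 100860905 (*PTGS2*), 102181874 (*PTGES*), 102172997 (*HPGD*), 102181502 (*PTGER2*) and 102188631 (*PTGER4*). The data were single-cell RNA counts of 2 libraries, made with a 3' droplet kit from shoulder skin in the growth phase of the hair cycle (anagen). CT-LCG came from a goat with coarse fibre and FT-LCG from a goat with fine fibre, both of the same breed and described as healthy, so each fibre type was 1 animal and 1 library. Fibre type, animal and preparation therefore cannot be told apart here, no test between the types was possible, and no p-value is given. All intervals below are 95% intervals that cover counting error only.

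Prostaglandins are short-lived lipid signals made from arachidonic acid, which phospholipases release from membranes. A cyclooxygenase, *PTGS1* or *PTGS2*, turns it into an unstable intermediate, and terminal synthases such as *PTGES* then make prostaglandin E2 or its relatives. Transporters take the signal back into cells, where *HPGD* inactivates it, and cells that carry receptors such as *PTGER2* and *PTGER4* respond through cyclic AMP. *PTGS1* is known as the constitutive cyclooxygenase, *PTGS2* as an inducible immediate early gene, and mast cells are a known source of prostaglandins, mainly prostaglandin D2, in skin.

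The cells that the authors kept numbered 3443 (CT-LCG) and 9608 (FT-LCG), at a median of 2314 and 6121.5 molecules (UMIs) per cell, respectively, and 11 barcode sequences occurred in both libraries. They formed 18 clusters of at least 20 cells in each library, of which 12 could be named from marker genes and 6 carry only the name of a leading gene. A level is the UMIs of a gene per 10000 UMIs of all genes, summed over the cells of 1 cluster in 1 library. Clusters were ranked by the unweighted mean of the level in CT-LCG and that in FT-LCG.

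The 6 genes did not share one source. *PTGS1*, *PTGS2* and *HPGD* were highest in the mast cell-like cluster, and *PTGES* in a suprabasal epidermal-like cluster led by *KRT4*. *PTGER4* had its highest mean in the T cell-like cluster, followed closely by the macrophage-like cluster, which was higher in CT-LCG (2.33 against 1.66). *PTGER2* also had its highest mean in the T cell-like cluster, but from 7 CT-LCG UMIs and 1 FT-LCG UMI, too few to order the clusters. For *PTGES*, 97.9% of the CT-LCG UMIs and 97.7% of the FT-LCG UMIs came from epithelial and unnamed clusters, which held 91.0% and 95.6% of the cells. Its level there (1.00 and 0.495) was close to that over all kept cells (0.971 and 0.489) and above that in the immune clusters (0.210 and 0.249). *PTGS1*, by contrast, drew 86.6% and 41.4% from the immune clusters, which held 4.39% and 1.59% of the cells. *PTGS2* had 87.6% and 90.7% of its UMIs in epithelial and unnamed clusters, below their share of the cells, and its level there (0.483 and 0.263) was lower than in the stroma (0.930 and 0.582) and in the immune clusters (1.62 and 0.847). The plot of levels by cluster and library shows these separate sources side by side.

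**Figure D1:**
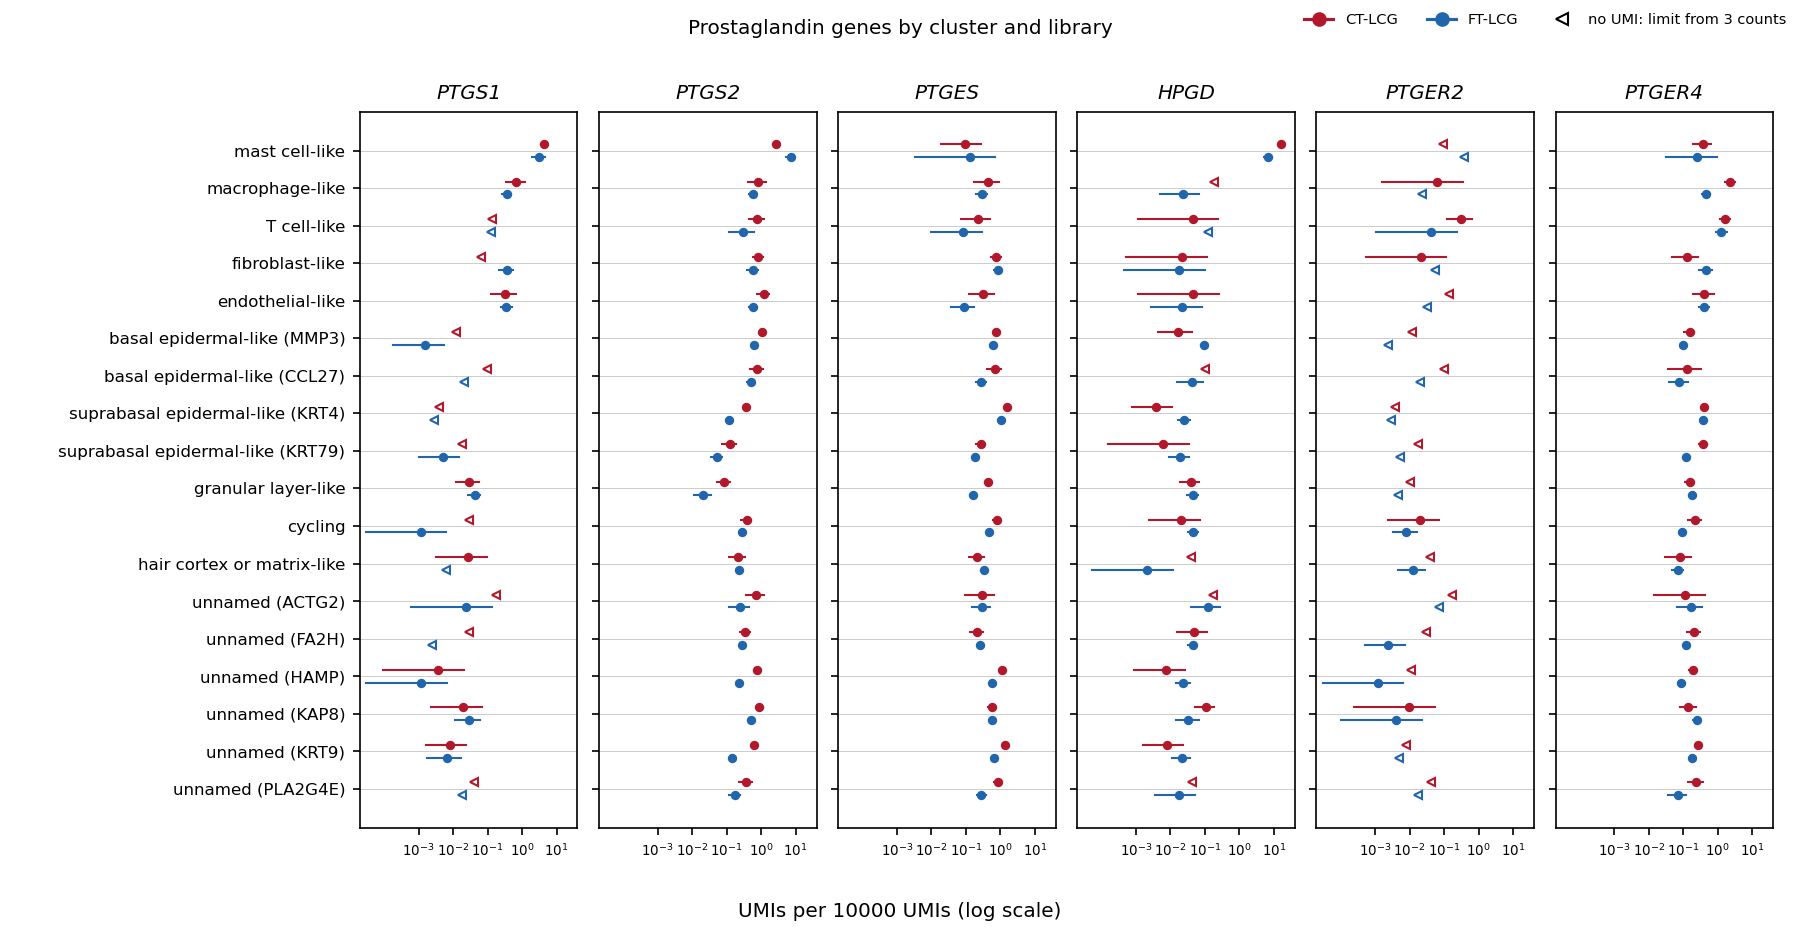
Levels of the 6 genes in 18 clusters. The x axis of each panel gives UMIs per 10000 UMIs on a log scale, points are single libraries (red CT-LCG, blue FT-LCG), bars are exact Poisson 95% intervals, and open triangles mark clusters with no UMI at the limit that 3 counts would give. The mast cell-like row leads for *PTGS1* (4.29 and 3.08), *PTGS2* (2.67 and 7.06) and *HPGD* (16.4 and 6.81), and is the lowest row on average for *PTGES*.

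*PTGS1*, the cyclooxygenase of resting cells, was sparse everywhere else. In the mast cell-like cluster its level was 4.29 (3.60 to 5.06) for CT-LCG and 3.08 (1.98 to 4.59) for FT-LCG, from 138 and 24 UMIs. The macrophage-like cluster came next, at 0.675 (0.337 to 1.21) and 0.358 (0.262 to 0.477), and the endothelial-like cluster followed at 0.317 and 0.352. The interval of the mast cell-like cluster lay above those of every other cluster in both libraries, while the macrophage-like and endothelial-like intervals overlapped. Most macrophage-like cells fell in an antigen-presenting-like sub-cluster when stromal and immune cells were clustered alone. It held 10 CT-LCG and 44 FT-LCG *PTGS1* UMIs (levels 0.745 and 0.344). The macrophage-like sub-cluster held 1 and 2 (0.324 and 1.25), with overlapping intervals. In 5 of the 18 clusters, among them T cell-like and suprabasal epidermal-like (KRT4) cells, neither library held a *PTGS1* UMI.

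In the fibroblast-like cluster *PTGS1* was seen in FT-LCG alone. FT-LCG held 20 UMIs, a level of 0.362 (0.221 to 0.558), against 0 in CT-LCG, which allows up to 0.0628, so the level was at least 5.76-fold higher in FT-LCG against a floor of 3 counts in the CT-LCG cluster, with a lower limit of 4.26 from counting error. These 20 UMIs lay in 6 of 114 cells, and 9 of them in 1 cell, without which the FT-LCG level was 0.203. When stromal and immune cells were clustered on their own, all 20 UMIs fell in the fibroblast-like sub-cluster (43 cells in FT-LCG, level 1.28, 0.784 to 1.98) and none in the dermal papilla-like sub-cluster. CT-LCG had only 8 cells in that fibroblast-like sub-cluster, whose 0 *PTGS1* UMIs allow up to 0.579, nearer to the FT-LCG level than in the whole cluster. It had 65 cells in the dermal papilla-like sub-cluster, against 43 and 13 cells in FT-LCG. The fibroblast-like cluster therefore did not hold the same mixture in both libraries.

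Shares of cells were compared after each cell was thinned to 1000 UMIs, since a share of cells with a UMI depends on depth. *PTGS1* was then seen in 32.3% (21.2 to 45.1) of 65 mast cell-like cells in CT-LCG and in 33.3% (16.5 to 54.0) of 27 in FT-LCG. In the granular layer-like cluster, used as background for this gene, the share was 0.662% and 0.280%. At full depth the mast cell-like shares were 80.3% and 41.4%, at median depths of 4371.5 and 1622 UMIs per cell, so the gap between the libraries at full depth was not seen at equal depth.

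**Figure D2:**
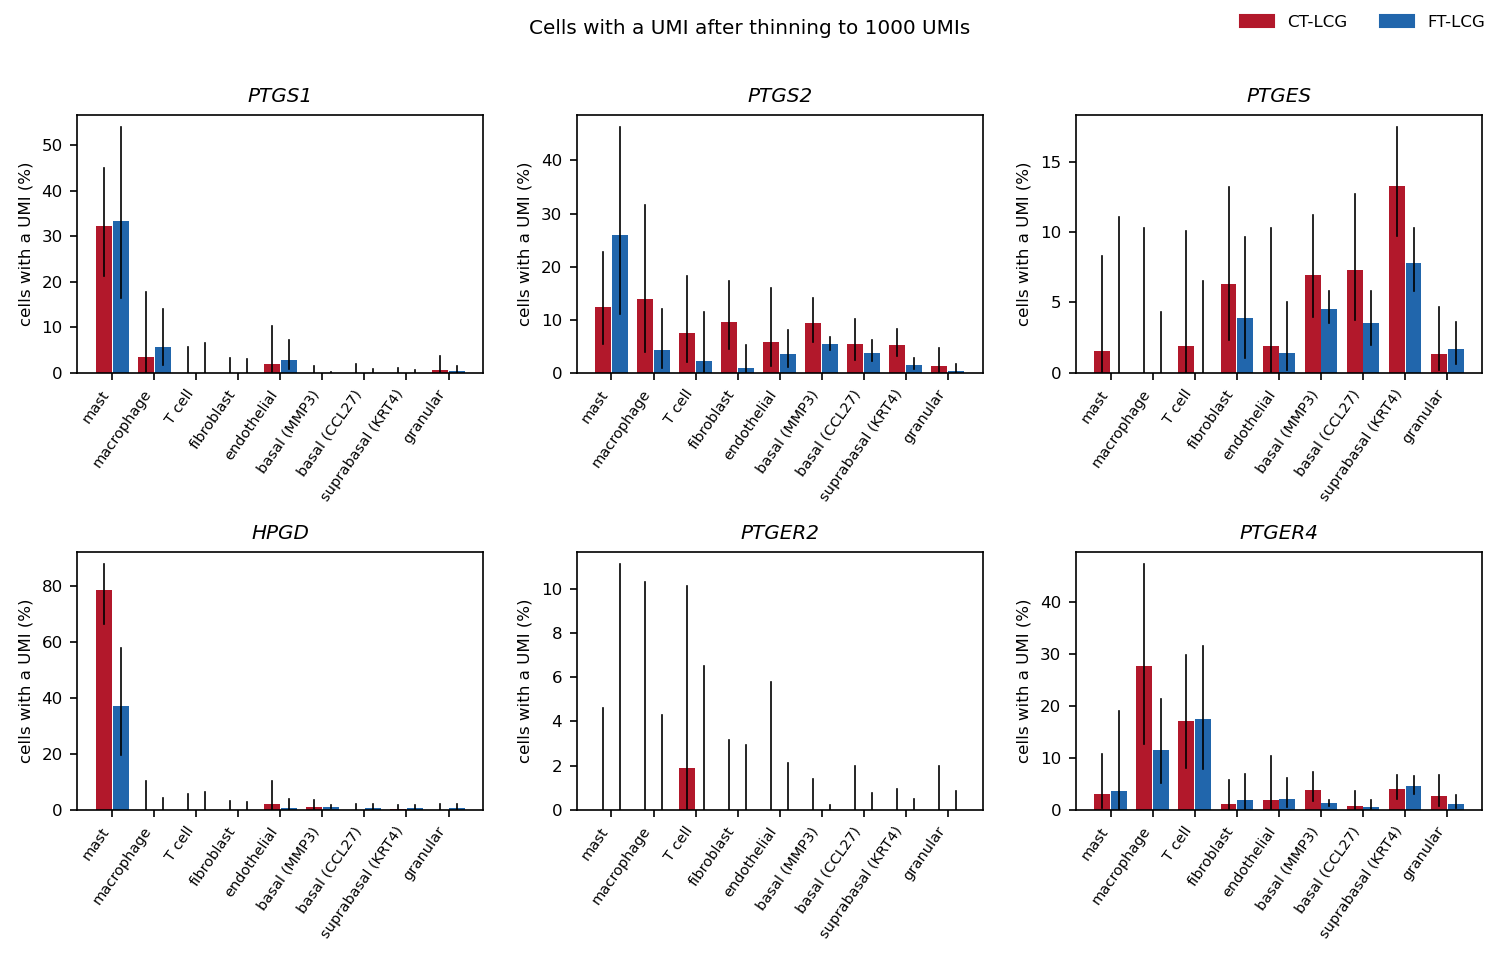
Percent of cells with at least 1 UMI of each gene in 9 clusters after thinning every cell to 1000 UMIs. Bars are libraries (red CT-LCG, blue FT-LCG), and lines are exact binomial 95% intervals, drawn up to the limit from 3 counts where the share is 0. Mast cell-like cells stand out for *PTGS1* (32.3% and 33.3%) and *HPGD* (78.5% and 37.0%), and suprabasal epidermal-like (KRT4) cells lead for *PTGES* (13.3% and 7.83%).

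*PTGS2*, the inducible cyclooxygenase, had UMIs in all 18 clusters of both libraries, and also in the barcodes that the authors did not keep (0.701 and 0.572). It was highest in the mast cell-like cluster, at 2.67 (2.14 to 3.30) in CT-LCG and 7.06 (5.32 to 9.20) in FT-LCG, followed by endothelial-like cells (1.18 and 0.595) and basal epidermal-like (MMP3) cells (1.03 and 0.628). Among the epidermal-like clusters the basal ones were highest, with 0.745 and 0.495 in the CCL27 cluster. Below them came suprabasal epidermal-like (KRT4) cells, at 0.361 and 0.115, then suprabasal epidermal-like (KRT79) cells, at 0.121 and 0.0511, and lowest of all clusters granular layer-like cells, at 0.0809 (0.0513 to 0.121) and 0.0210 (0.0115 to 0.0353). The KRT79 and granular intervals overlapped in both libraries.

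The high *PTGS2* level of mast cell-like cells in FT-LCG rested on few cells. Its 55 UMIs lay in 8 of 29 cells, and 20 of them in 1 cell. Without the cell with most UMIs the level was 4.66, and CT-LCG without its own such cell had 2.24. In thinned cells, 12.3% (5.47 to 22.8) of CT-LCG and 25.9% (11.1 to 46.3) of FT-LCG mast cell-like cells had a *PTGS2* UMI, and these intervals overlapped. The T cell-like background was 7.55% (2.09 to 18.2) and 2.17%. In both libraries its interval overlapped that of mast cell-like cells, only narrowly in FT-LCG. By these intervals the thinned shares do not separate mast cell-like from T cell-like cells in either library. Granular layer-like cells, the lowest cluster for *PTGS2*, had 1.32% (0.161 to 4.70) and 0.280% (0.00709 to 1.55). In both libraries that interval lay below the one of mast cell-like cells.

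One cell also set some of the lesser *PTGS2* levels in CT-LCG. In the endothelial-like cluster 14 of 26 UMIs were in 1 cell, and without it the level was 0.582. FT-LCG had 0.595 there, or 0.368 without its own top cell. In the T cell-like cluster 12 of 17 UMIs were in 1 cell, and without it the level was 0.223. FT-LCG had 0.290 there, or 0.170 without its own top cell. The basal epidermal-like (MMP3) levels had no such dependence, resting on 255 and 818 UMIs. In the basal epidermal-like (CCL27) cluster 6 of 23 CT-LCG UMIs were in 1 cell, and without it the level was 0.555. FT-LCG had 0.462 there without its own top cell.

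Because *PTGS2* responds quickly to handling, the summed level of 12 immediate early genes (*FOS*, *FOSB*, *JUN*, *JUNB*, *EGR1*, *ATF3*, *IER2*, *IER3*, *DUSP1*, *ZFP36*, *NR4A1* and *BTG2*) was set beside it. In the mast cell-like cluster that sum was 79.9 UMIs per 10000 in CT-LCG and 220 in FT-LCG, so it was higher in the same library in which *PTGS2* was higher, and its part in the *PTGS2* result was not tested. Over all clusters the sum ranged from 71.9 to 211 in CT-LCG and from 54.7 to 222 in FT-LCG. The granular layer-like cluster, lowest for *PTGS2*, had sums of 142 and 166, well inside that range.

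*PTGES*, which makes prostaglandin E2 from the cyclooxygenase product, had a level of 1.00 (0.963 to 1.04) in CT-LCG over all epithelial and unnamed clusters and 0.495 (0.480 to 0.511) in FT-LCG, against 0.615 (0.445 to 0.829) and 0.383 (0.289 to 0.498) in the stroma. Its level was highest in suprabasal epidermal-like (KRT4) cells, at 1.53 (1.45 to 1.62) in CT-LCG and 1.02 (0.965 to 1.09) in FT-LCG, followed by the unnamed clusters led by *KRT9* (1.36 and 0.652) and *HAMP* (1.09 and 0.567). Basal epidermal-like (MMP3) cells stood at 0.765 and 0.596 and the cycling cluster at 0.779 and 0.484. In granular layer-like cells it was 0.443 (0.369 to 0.528) and 0.159 (0.130 to 0.193). The mast cell-like cluster, richest in both cyclooxygenases, had the lowest mean, from 3 CT-LCG UMIs and 1 FT-LCG UMI. Its levels were 0.0932 (0.0192 to 0.272) and 0.128 (0.00325 to 0.716). T cell-like (0.218 and 0.0828) and endothelial-like cells (0.317 and 0.0881) had overlapping intervals in both libraries and lower levels in FT-LCG, so a low *PTGES* level was not particular to mast cell-like cells.

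Within the KRT4 cluster *PTGES* was uneven. Clustering only cells with at least 1000 genes, an alternative described after seeing the data, split the KRT4 cluster, and 92 of its 324 cells in CT-LCG (28.4%) and 168 of its 600 in FT-LCG (28.0%) fell in the group richest in *PTGES*. That group was chosen for its *PTGES* level. Its leading genes, picked after their values were seen, include *KRT4*, *AQP5* (a water channel), *KLK12* (a kallikrein protease) and *S100A7A* (an S100 protein). In that group the *PTGES* level was 2.65 (2.46 to 2.86) in CT-LCG and 2.51 (2.34 to 2.69) in FT-LCG. In the other 232 and 422 cells of the cluster with enough genes it was 0.974 (0.892 to 1.06) and 0.381 (0.338 to 0.428). Since the group was picked by its *PTGES* level, these values are a description, and in CT-LCG the other cells still held 514 of the 1214 UMIs.

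Outside the epithelium, *PTGES* was found in the fibroblast-like cluster, at 0.754 (0.528 to 1.04) and 0.868 (0.640 to 1.15). In the sub-clusters of stromal cells it was 3.67 (2.21 to 5.73) and 1.73 (1.14 to 2.52) in fibroblast-like cells, from 8 and 43 cells, and 0.497 (0.289 to 0.795) and 0.834 (0.306 to 1.82) in dermal papilla-like cells. The intervals of the 2 sub-clusters did not overlap in CT-LCG and did in FT-LCG. *PTGS2* was present in the same dermal papilla-like sub-cluster, at 1.02 (0.712 to 1.42) in CT-LCG and 0.695 (0.226 to 1.62) in FT-LCG. In the macrophage-like cluster of CT-LCG all 7 *PTGES* UMIs were in 1 cell.

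After thinning, 13.3% (9.77 to 17.5) of KRT4 cells in CT-LCG and 7.83% (5.81 to 10.3) in FT-LCG had a *PTGES* UMI. The T cell-like background was 1.89% (0.0478 to 10.1) of 53 cells and 0 of 46 cells, which allows up to 6.52%, so the wide background intervals reach into the epidermal shares. At full depth the shares were 64.5% and 47.7%.

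*PTGS2* and *PTGES* act in sequence, so their detection in the same cells was compared in keratinocyte clusters with cells thinned to 5000 UMIs. In basal epidermal-like (MMP3) cells of FT-LCG, 29.8% (23.5 to 36.9) of the 191 cells with a *PTGS2* UMI also had a *PTGES* UMI, against 19.7% (17.3 to 22.4) of the 968 cells without. In CT-LCG the shares were 26.4% (15.3 to 40.3) of 53 and 30.0% (22.3 to 38.7) of 130. In the *HAMP* cluster the order turned round between libraries. In CT-LCG *PTGES* was found less often with a *PTGS2* UMI, at 10.8% (3.03 to 25.4) against 37.0% (28.9 to 45.8), with intervals apart. In FT-LCG the shares were 26.8% against 19.6%, with overlapping intervals. In KRT4 cells the share was lower with a *PTGS2* UMI in both libraries, at 25.6% against 41.2% in CT-LCG and 21.7% against 30.2% in FT-LCG. The *KRT9* cluster ran the same way (32.6% against 42.4%, and 4.55% against 24.7%). The *FA2H* cluster ran the other way (16.7% against 5.77%, and 10.9% against 8.42%). In the KRT4, *KRT9* and *FA2H* clusters the intervals overlapped in both libraries. Granular layer-like cells had 1 *PTGS2*-positive cell in each library, too few to compare. No cluster showed *PTGES* more often, or less often, in *PTGS2*-positive cells in both libraries with intervals apart.

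*HPGD*, which inactivates prostaglandins by oxidation, was concentrated in the mast cell-like cluster. It reached 16.4 (15 to 17.9) in CT-LCG, from 528 UMIs, and 6.81 (5.10 to 8.90) in FT-LCG, from 53 UMIs, and was seen in 61 of 66 and 17 of 29 cells. No other cluster exceeded 0.119 in either library. The immune clusters supplied 92.3% of the CT-LCG *HPGD* UMIs and 14.1% of those in FT-LCG, of which 85.2% came from epithelial and unnamed clusters.

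The remaining *HPGD* in FT-LCG was spread thinly over keratinocytes. Basal epidermal-like (MMP3) cells held 122 UMIs in 108 of 1384 cells, a level of 0.0937 (0.0778 to 0.112), against 4 UMIs and 0.0161 (0.00439 to 0.0413) in CT-LCG. *CPA3*, a mast cell protease gene, had 44 UMIs beside the 53 of *HPGD* in mast cell-like cells of FT-LCG and 0 UMIs beside the 122 in the basal epidermal-like cluster. After thinning, the basal share was 0.930% (0.113 to 3.32) in CT-LCG and 0.940% (0.501 to 1.60) in FT-LCG, and thinned T cell-like cells had none in 53 and 46 cells, which allows up to 5.66% and 6.52%. The basal share therefore could not be told from background after thinning. Only 2 thinned CT-LCG cells held a UMI, so the thinned shares can neither show nor deny the gap between libraries seen in the level. Unthinned, *HPGD* was found in 1.86% of the 215 basal CT-LCG cells, whose median was 11605 UMIs. For the 1384 basal FT-LCG cells the share was 7.80%, with a median of 8582 UMIs.

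The 29 cells of the FT-LCG mast cell-like cluster were not alike. Of these, 17 fell in the mast cell-like sub-cluster when stromal and immune cells were clustered alone, and 12 did not. The 12 others had 0 UMIs of *KIT* (the mast cell growth factor receptor) and of *FCER1A* (a chain of the IgE receptor) and 1 of *CPA3*, and held 3 of the 53 *HPGD* UMIs. In CT-LCG only 2 of 66 cells fell outside the sub-cluster. Over the whole cluster all 3 of these markers were lower in FT-LCG, *KIT* at 4.62 against 8.54, *CPA3* at 5.65 against 11.6 and *FCER1A* at 1.67 against 8.54.

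Within the sub-cluster the libraries came closer for 2 of the 3 enzymes. *HPGD* was 16.4 (15 to 17.9) in 64 CT-LCG cells and 12.5 (9.30 to 16.5) in 17 FT-LCG cells, and the ratio of FT-LCG to CT-LCG was 0.763 (0.559 to 1.02), against 0.415 (0.307 to 0.551) for the whole cluster. *PTGS1* was 4.28 and 4.76, a ratio of 1.11 (0.649 to 1.80). *PTGS2* moved apart instead, at 2.69 (2.15 to 3.32) and 12 (8.87 to 15.9), a ratio of 4.47 (3.07 to 6.44). The 2 FT-LCG cells with most *PTGS2* had 73.8 and 72.9 UMIs per 10000 of their own UMIs, and without them the FT-LCG level was 2.88, against 1.77 in CT-LCG without its 2 highest cells. The immediate early gene sum in the sub-cluster was 79.9 in CT-LCG and 153 in FT-LCG.

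**Figure D3:**
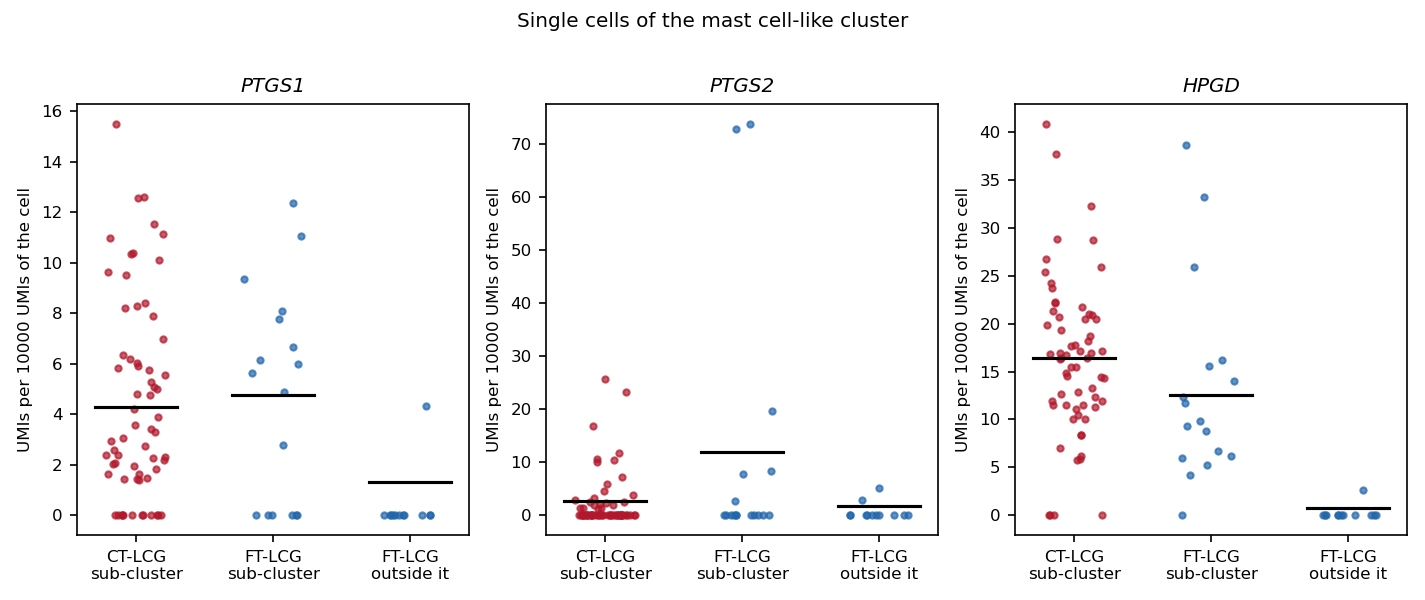
Single cells of the mast cell-like cluster. Each point is 1 cell, the y axis gives UMIs of the gene per 10000 UMIs of that cell, and black lines are levels from summed UMIs in the 64 CT-LCG and 17 FT-LCG cells of the mast cell-like sub-cluster and in the 12 FT-LCG cells outside it (the 2 such CT-LCG cells are not drawn). *HPGD* is present in 60 of 64 and 16 of 17 sub-cluster cells, and 2 FT-LCG cells stand far above the others for *PTGS2*.

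Most mast cell-like cells with *PTGS1* also had *HPGD*. In CT-LCG 51 of 66 cells had both, 2 had *PTGS1* alone and 10 had *HPGD* alone, and in FT-LCG 11 of 29 had both, 1 had *PTGS1* alone and 6 had *HPGD* alone. *PTGS2* was seen in fewer cells, 23 of 66 and 8 of 29, of which 22 and 7 also had *HPGD*. The enzyme that starts prostaglandin synthesis and the one that ends its action were thus found in the same cells. These counts are at full depth, and a link beyond the separate shares was not tested. In FT-LCG 11 of the 29 cells had neither *PTGS1* nor *HPGD*. *HPGD* was in 61 of 66 CT-LCG cells, and 12 of the 29 FT-LCG cells lay outside the mast cell-like sub-cluster.

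*PTGER2*, a receptor that raises cyclic AMP, was almost undetected, and all kept cells together held 12 UMIs (CT-LCG) and 19 UMIs (FT-LCG). The T cell-like cluster held 7 of the 12 in CT-LCG, in 5 of 55 cells, a level of 0.306 (0.123 to 0.630), and 1 of the 19 in FT-LCG, a level of 0.0414 (0.00105 to 0.231). In FT-LCG 7 UMIs were in the cycling cluster and 6 in hair cortex or matrix-like cells, at levels of 0.00805 and 0.0127. In 10 of the 18 clusters neither library held a UMI, and after thinning 1 T cell-like cell of 53 in CT-LCG and 0 of 46 in FT-LCG had one. The granular layer-like background had 0 of 151 and 0 of 357, and in both libraries the T cell-like interval overlapped those of other clusters, so the counts are too low to order the clusters.

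*PTGER4*, the second of these receptors, was by contrast detected in all 18 clusters. The T cell-like cluster had 1.66 (1.17 to 2.28) in CT-LCG and 1.28 (0.872 to 1.82) in FT-LCG. The macrophage-like cluster had 2.33 (1.65 to 3.20) and 0.467 (0.356 to 0.601). Endothelial-like cells (0.407 and 0.396) and suprabasal epidermal-like (KRT4) cells (0.393 and 0.383) came next, and basal epidermal-like (MMP3) cells had 0.153 and 0.101. In FT-LCG the T cell-like interval lay above all others except that of the mast cell-like cluster, which had 2 UMIs, while in CT-LCG it overlapped that of macrophage-like cells.

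The macrophage-like value of CT-LCG came from 12 of 30 cells, and 12 of its 38 UMIs were in 1 cell, without which the level was 1.69. Most cells of that cluster, 20 of 30 and 64 of 77, fell in an antigen-presenting-like sub-cluster, in which *PTGER4* was 2.53 (1.76 to 3.54) and 0.422 (0.317 to 0.551). The macrophage-like sub-cluster ran the other way by value, at 1.30 (0.354 to 3.32) from 4 UMIs and 3.75 (1.37 to 8.15) from 6 UMIs, with overlapping intervals. After thinning, 27.6% (12.7 to 47.2) of 29 cells and 11.4% (5.07 to 21.3) of 70 macrophage-like cells had a *PTGER4* UMI, with overlapping intervals. The T cell-like shares were 17% (8.07 to 29.8) and 17.4% (7.82 to 31.4), against 2.65% (0.726 to 6.64) and 1.12% (0.306 to 2.84) in the granular layer-like background.

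In the stroma, *PTGER4* differed between neighbouring cell groups. The fibroblast-like cluster had 0.126 (0.0461 to 0.273) in CT-LCG and 0.452 (0.292 to 0.667) in FT-LCG, a ratio of 3.60 (1.44 to 10.7). The dermal papilla-like sub-cluster held no *PTGER4* UMI in its 65 CT-LCG and 13 FT-LCG cells, and it made up most of the fibroblast-like cells in CT-LCG, so the ratio compares different mixtures. In the fibroblast-like sub-cluster itself the level was 0.966 (0.314 to 2.25) from 8 CT-LCG cells and 0.963 (0.539 to 1.59) from 43 FT-LCG cells.

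Whether *PTGES* and *PTGER4* occur in the same keratinocytes was read in the KRT4 cluster after thinning to 5000 UMIs. In CT-LCG 19.3% (12.7 to 27.6) of cells with a *PTGES* UMI had a *PTGER4* UMI, against 14.0% (9.34 to 19.8) of those without. In FT-LCG the shares were 14.7% (9.75 to 20.9) and 16% (12.5 to 20.0), so the intervals overlapped in both libraries.

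Levels of each gene were then compared between the 2 libraries within clusters. There were 59 pairs of gene and cluster with at least 20 UMIs over both libraries. Of these, 18 (30.5%) were more than 2-fold higher in CT-LCG, against 10.7% of the 149630 such pairs over all genes, and 7 (11.9%) were more than 2-fold higher in FT-LCG, against 10.6%. The share higher in CT-LCG was above this pooled background and the share higher in FT-LCG was close to it. Among the 7 were 4 *HPGD* pairs, with 2 to 4 CT-LCG UMIs, and *PTGS1* in fibroblast-like cells, with 0. These reached 20 UMIs only through FT-LCG, so the share higher in FT-LCG cannot be read as a result about the 6 genes. Within single clusters the share of all genes higher in CT-LCG ran from 4.11% (*KAP8*) to 27.6% (mast cell-like). The share higher in FT-LCG ran from 4.58% (KRT4) to 26.2% (*ACTG2*). The median log2 ratio of FT-LCG to CT-LCG over the 59 pairs was -0.58, beside a median over clusters of -0.08 for all genes.

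*PTGS2* was lower in FT-LCG in 16 of 18 clusters, by more than 2-fold in 8 of them. Of all genes, 5.51% (*ACTG2* cluster) to 21.2% (*PLA2G4E* cluster) were past 2-fold in that direction in these 8. Among the 8 were T cell-like cells (2.56-fold, 1.01 to 7.31), which depended on 1 CT-LCG cell. Without it the CT-LCG level was 0.223, against 0.290 in FT-LCG, or 0.170 without the FT-LCG cell with most UMIs. Endothelial-like cells, among the 16, likewise had 0.582 without 1 CT-LCG cell, against 0.595 in FT-LCG, or 0.368 without its top cell. The widest gaps were in the *KRT9* cluster, at 0.637 (0.560 to 0.723) in CT-LCG and 0.145 (0.116 to 0.178) in FT-LCG, 4.40-fold (3.44 to 5.69), and in granular layer-like cells, 3.85-fold (1.90 to 8.08). In suprabasal epidermal-like (KRT4) cells CT-LCG was 3.14-fold (2.54 to 3.92) higher and in the *HAMP* cluster 3.45-fold (2.82 to 4.23). The immediate early gene sum was lower in FT-LCG in 8 of these 16 clusters and higher in 8, several by almost nothing, and in the *KRT9* cluster it was 138 and 155. Its part in the *PTGS2* differences was not tested. The mast cell-like cluster ran the other way, 2.65-fold (1.85 to 3.75) higher in FT-LCG, and in hair cortex or matrix-like cells the ratio was 1.12 (0.660 to 2.03), an interval that includes 1.

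*PTGES* was lower in FT-LCG in 11 of 14 clusters, by more than 2-fold in 4. These were the *PLA2G4E* cluster (2.98-fold, 2.01 to 4.44), granular layer-like cells (2.78-fold, 2.13 to 3.64), basal epidermal-like (CCL27) cells (2.47-fold, 1.39 to 4.30) and the *KRT9* cluster (2.08-fold, 1.82 to 2.38). Of all genes, 21.2%, 12.2%, 12.5% and 9.88% were past 2-fold in that direction in these clusters, respectively. In the *KAP8* cluster, the largest and one of low depth, the ratio of FT-LCG to CT-LCG was 0.993 (0.730 to 1.37). *PTGER4* was lower in FT-LCG in 12 of 15 clusters, by more than 2-fold in 5. Of all genes, 8.12% (cycling cluster) to 21.2% (macrophage-like and *PLA2G4E* clusters) were past 2-fold in that direction in these 5. The widest *PTGER4* gap was in the macrophage-like cluster (4.99-fold, 3.24 to 7.62), most of whose cells were of the antigen-presenting-like sub-cluster. In KRT4 cells *PTGER4* did not differ by more than its counting error, with a ratio of 0.976 (0.840 to 1.13). These are ratios between the same 2 libraries in every cluster, so the clusters are not independent repeats.

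For *HPGD*, FT-LCG was higher in 5 of the 7 clusters with at least 20 UMIs, by more than 2-fold in 4. These 4 held 2 to 4 UMIs in CT-LCG and reached 20 UMIs only through FT-LCG. The limit of 20 UMIs therefore favoured this direction, and the count of clusters cannot be read as a trend. Of all genes, 4.58% (KRT4) to 8.68% (*HAMP*) were more than 2-fold higher in FT-LCG in these 4 clusters. The ratios were 5.81 (2.21 to 21.7) in basal epidermal-like (MMP3) cells and 6.46 (1.98 to 33.4) in KRT4 cells, from 4 and 3 UMIs in CT-LCG, and in the *HAMP* and cycling clusters the intervals included 1. In mast cell-like cells *HPGD* was 2.41-fold (1.81 to 3.26) higher in CT-LCG, where 27.6% of all genes were past 2-fold in the same direction. *PTGS1* had 5 clusters with at least 20 UMIs, of which only fibroblast-like cells passed 2-fold. There 10.6% of all genes were more than 2-fold higher in FT-LCG. The *PTGS1* pair, with 0 UMIs in CT-LCG, likewise reached 20 UMIs only through FT-LCG.

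**Figure D4:**
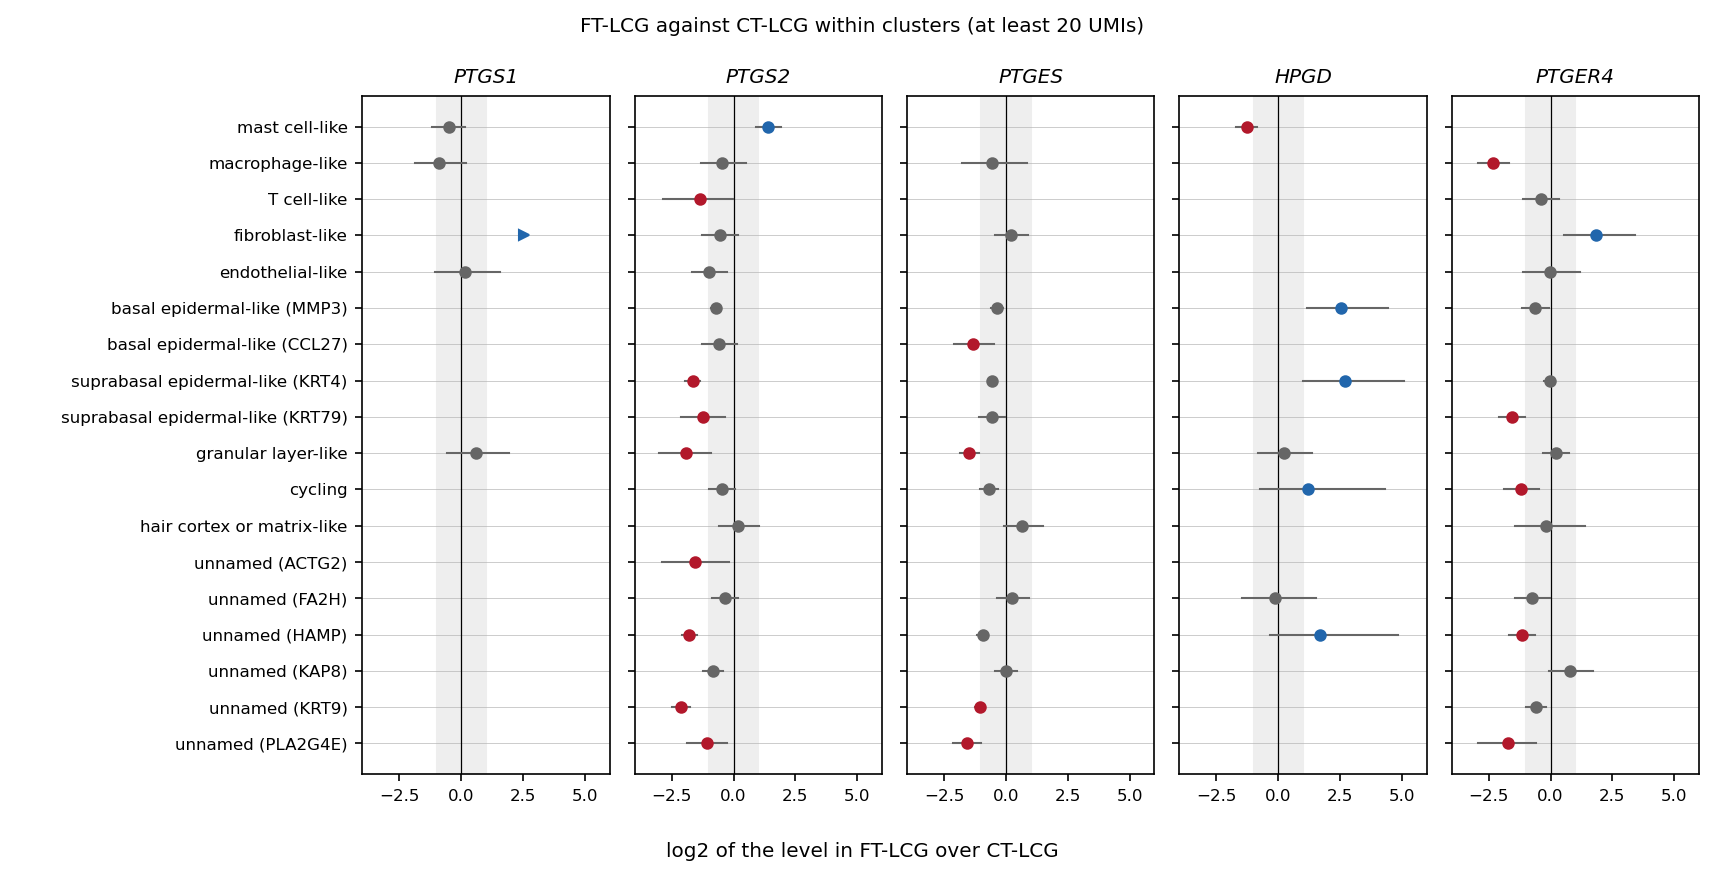
Log2 ratio of the level in FT-LCG over CT-LCG for each gene and cluster with at least 20 UMIs. Points are ratios, lines their exact conditional 95% intervals, grey shading marks less than 2-fold, red points are more than 2-fold higher in CT-LCG, blue points more than 2-fold higher in FT-LCG, and the arrowhead is a lower bound against 0 UMIs. *PTGS2* lies left of 0 in 16 of 18 clusters and *HPGD* right of 0 in 5 of 7. The 4 blue *HPGD* points reached 20 UMIs only through FT-LCG.

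The genes with the most similar patterns differed from one of the 6 genes to the next. Likeness was Pearson's r of log2(level + 0.1) over 36 points, 18 clusters in each of the 2 libraries, among 13009 genes with at least 100 UMIs, and is given as a description, since points of 1 library share its depth and preparation. *HPGD* was most like *CPA3* (r = 0.984), the uncharacterised *LOC108636909* (r = 0.982) and *MS4A2*, a chain of the IgE receptor (r = 0.981). *PTGS1* was most like *FAM105A* (r = 0.965), *SEMA7A*, a membrane-anchored semaphorin (r = 0.953), and *PPM1F*, a phosphatase (r = 0.91). No likeness is given for *PTGER2*, whose UMIs were under the 100 asked of the compared genes.

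The other genes had broader patterns and lower r. *PTGER4* was most like *RAB8B* and *RAP1A*, small GTPases (r = 0.878 and 0.869), and *AKNA* (r = 0.857). *PTGS2* was most like *DHX15*, an RNA helicase (r = 0.824), *MATR3*, a nuclear matrix protein gene (r = 0.824), and *ZCCHC8* (r = 0.823), and *PTGES* was most like *APIP* (r = 0.79), the transcription factor *SOX5* (r = 0.78) and *LOC108633281* (r = 0.767). Among the 6 genes themselves r was highest for *PTGS1* with *HPGD* (0.79), *PTGS1* with *PTGS2* (0.66) and, both at 0.63, *PTGS2* with *HPGD* and *PTGER2* with *PTGER4*. The last pair rests on few *PTGER2* UMIs. *PTGES* was not positively related to any of the other genes (r from -0.4 to -0.05). With Spearman's rho in place of Pearson's r, the 3 genes named for *PTGES* were found again, and for *PTGS1*, *PTGS2*, *HPGD* and *PTGER4* none of the named genes was.

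The rest of the pathway was read from a list of 41 gene symbols, of which 33 were in the matrix and 20 had at least 100 UMIs. The symbols *PRXL2B* and *PTGR3* were not found, but they are other names of *FAM213B* and *ZADH2*, which were. Leading clusters are again by the mean of both libraries, and of the genes named below only *AKR1B1*, *FAM213B*, *ZADH2*, *SLCO2A1*, *PTGER3*, *LTC4S*, *ALOX12B*, *ALOXE3*, *HPGDS* and *ALOX5* had the same leading cluster in each library. Of the phospholipases, 4 of 7 in the matrix had 100 UMIs. *PLA2G4A*, the cytosolic phospholipase that supplies arachidonic acid, was highest in the cycling cluster (0.256 and 0.225), and *PLA2G4E* in granular layer-like cells (0.749 and 0.590). *PLA2G4F* and *PLA2G6* stayed under 0.1 in their leading clusters, where they had 4 UMIs or fewer in either library.

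Terminal synthases were spread over several cell types. *PTGES3*, a co-chaperone with prostaglandin E synthase activity, had its highest mean in T cell-like cells (4.98 and 8.20), a lead that came from FT-LCG alone, since the cluster ranked 10 of 18 in CT-LCG, where mast cell-like cells were highest (7.30). *PTGES2*, the membrane-associated form, was highest in the cycling cluster (0.247 and 0.189). *FAM213B*, a prostamide and prostaglandin F synthase, led in granular layer-like cells (0.826 and 1.13), and *AKR1B1*, an aldo-keto reductase, in fibroblast-like cells (0.837 and 0.271). *HPGDS*, the haematopoietic prostaglandin D synthase, had fewer than 100 UMIs and was chosen after its values were seen. It had 32 and 3 UMIs in mast cell-like cells (0.994 and 0.385) and 14 and 30 in macrophage-like cells (0.859 and 0.233), and no other cluster held more than 1 UMI in either library. *ALOX5*, the 5-lipoxygenase of the leukotriene branch, was likewise chosen afterwards, and had 32 and 10 UMIs in mast cell-like cells (0.994 and 1.28).

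Of the breakdown and transport genes, *PTGR1*, a reductase that acts after *HPGD*, was highest in suprabasal epidermal-like (KRT4) cells (1.64 and 2.03), the cluster that also led for *PTGES*. *PTGR2*, a second such reductase, was highest in T cell-like cells (0.480 and 0.455), and *ZADH2*, another, in basal epidermal-like (MMP3) cells (1.05 and 1.57). *SLCO2A1*, the prostaglandin uptake transporter, was highest in endothelial-like cells (0.317 and 0.286), and *ABCC4*, an export pump, in macrophage-like cells (2.27 and 1.06). The uptake transporter and *HPGD* thus had different leading clusters.

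Only 1 of the 7 other prostanoid receptors had at least 100 UMIs. That was *PTGER3*, a receptor that lowers cyclic AMP, which was highest in mast cell-like cells, at 1.55 (1.15 to 2.05) in CT-LCG from 50 UMIs and 0.385 (0.0795 to 1.13) in FT-LCG from 3 UMIs. In the leukotriene and hydroxy fatty acid branches, *LTC4S*, the leukotriene C4 synthase, was highest in mast cell-like cells at 8.54 (7.56 to 9.61) and 9.25 (7.24 to 11.6), alike in both libraries within counting error. *ALOX5AP*, which presents arachidonic acid to the 5-lipoxygenase, led in macrophage-like cells (0.859 and 0.490), *LTA4H* in fibroblast-like cells (0.230 and 0.271), *ALOX12B* and *ALOXE3*, the epidermal lipoxygenases of the skin barrier, in granular layer-like cells (0.454 and 0.497, and 0.190 and 0.246), and *ALOX12* in the *PLA2G4E* cluster (0.483 and 0.265).

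**Figure D5:**
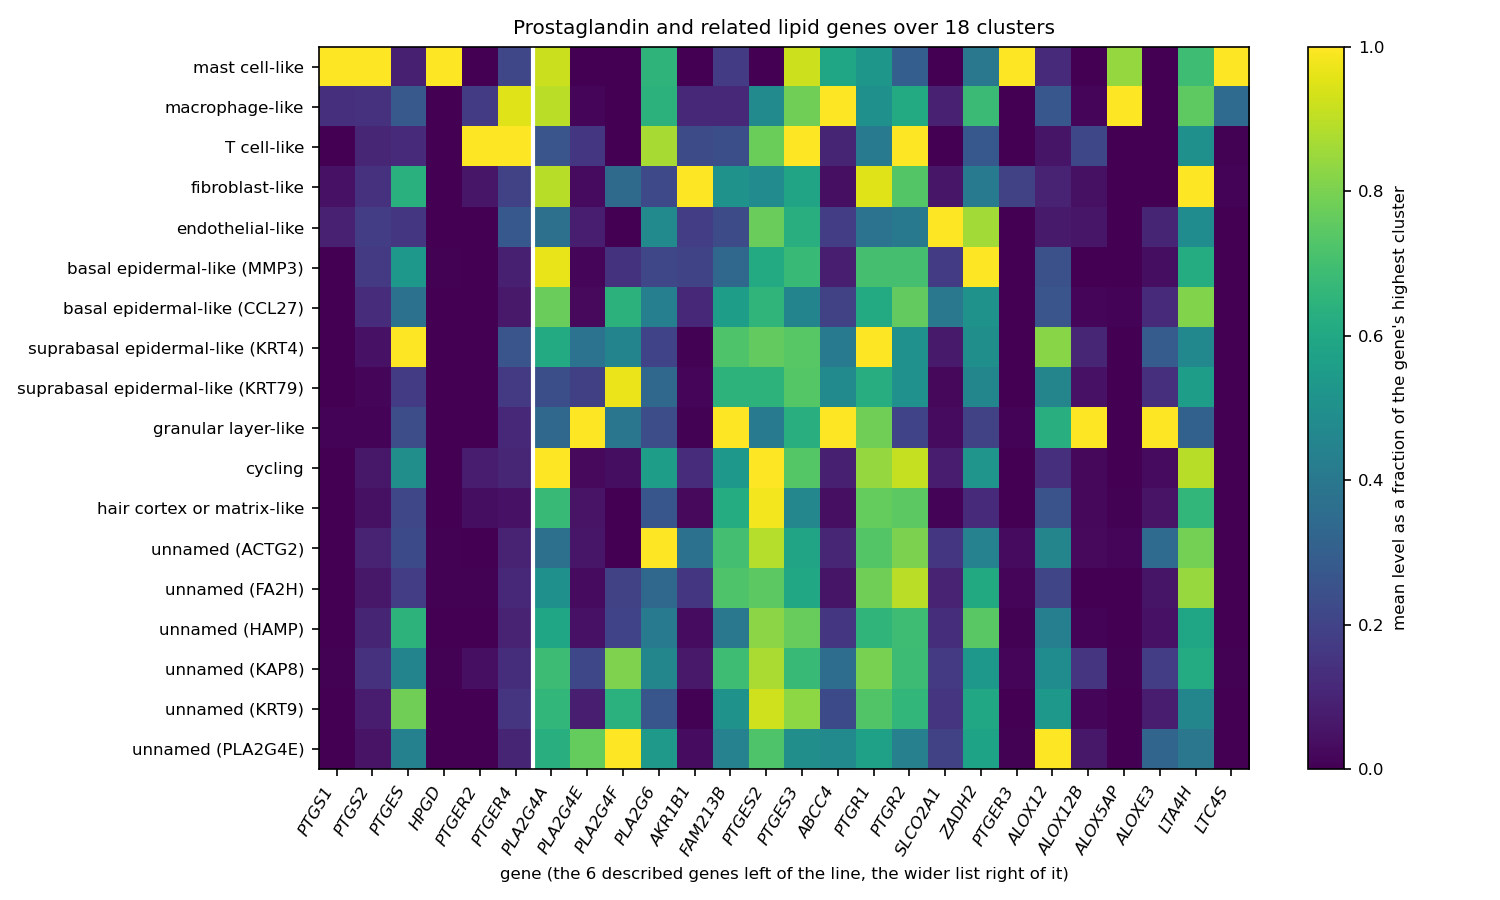
Mean level of both libraries for each gene (columns) and cluster (rows), as a fraction of the gene's highest cluster from 0 (dark) to 1 (yellow). The mast cell-like row is at 1 for *PTGS1*, *PTGS2*, *HPGD*, *PTGER3* and *LTC4S*, the granular layer-like row for *PLA2G4E*, *FAM213B*, *ALOX12B* and *ALOXE3*, and the suprabasal epidermal-like (KRT4) row for *PTGES* and *PTGR1*.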

How the data were processed

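Single-cell RNA-seq was measured in 2 libraries of goat skin. The authors deposited 1 matrix of UMI counts, whose header names Cell Ranger 3.0.2, and a table that gives the library of each kept cell. The submitters' processing notes name Seurat 3.1.1, and a goat genome build is not given in the sources used here, so no coordinates are printed. The fibre type of a library was taken from the deposited cell table, since the labels of the 2 samples do not give it. The 4248 barcodes that the authors did not keep (of 17299) were left out. Kept cells of CT-LCG held 27890472 UMIs and those of FT-LCG 85400323, and counting intervals widen accordingly in small clusters.

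Counts were scaled to 10000 per cell and logged, 2000 variable genes without any pathway gene gave 10 principal components, a numpy version of Harmony aligned the libraries, and cells were clustered by leidenalg 0.10.2 at resolution 0.7 with 20 neighbours. Names came from fixed marker lists: at least 3 markers with 10 UMIs, a mean log2 fold of 1 or more, and no other list with more markers among the 10 leading genes. Low-depth clusters, with a median under 1/3 of the library median in either library, needed at least 1 marker among those 10 genes. Poisson, Clopper-Pearson and conditional binomial intervals are exact, at 95%, and 3 counts is the floor for 0. UMIs count amplified copies of a molecule once. Doublets were not removed, since Scrublet called 0 cells in either library, which is no working call; an alternative left out the 5% with the highest scores. Stromal and immune cells were also clustered alone at resolution 1.0, a step chosen after seeing the data. Named genes were the 6 genes in every cluster, listed pathway genes with at least 100 UMIs and the 3 most alike genes per gene, which are not given for *PTGER2* because of its low counts. The 6 genes and the lists were chosen with earlier results of these data known. Steps were tested on simulated data.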

Additional observations from a re-analysis of the deposited data

Results flagged for a closer look

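The barcodes that the authors left out, 2659 of CT-LCG and 1589 of FT-LCG, were in no comparison and still held more than 3 UMIs of 5 of the 6 genes in both libraries, above the limit that 0 counts allows. There the CT-LCG level of *PTGS1* was 0.0252 and the FT-LCG level 0.0602, with *HPGD* at 0.0353 and 0.0803, and *PTGER4* at 0.192 and 0.201 UMIs per 10000. *PTGS2* was at 0.701 and 0.572 and *PTGES* at 0.686 and 0.462. The FT-LCG *PTGS2* level was above that of most clusters of kept cells, for example 0.115 in suprabasal epidermal-like (KRT4) and 0.145 in *KRT9* cells, and below the 0.628 of basal epidermal-like (MMP3) cells.

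For 3 genes the intervals of the ratio of FT-LCG to CT-LCG lay on opposite sides of 1 in different clusters, on the log2 scale. *PTGS2* was at -2.14 in the *KRT9* cluster and 1.40 in mast cell-like cells. *HPGD* was at -1.27 in mast cell-like cells and 2.69 in suprabasal epidermal-like (KRT4) cells. The KRT4 value came from 3 CT-LCG and 26 FT-LCG UMIs, so that pair reached 20 UMIs only through FT-LCG. In the mast cell-like sub-cluster *HPGD* was at -0.39, where the interval of the ratio included 1 (0.559 to 1.02). *PTGER4* was at -2.32 in macrophage-like cells and 1.85 in fibroblast-like cells, whose fibroblast-like sub-cluster had 0.966 in CT-LCG against 0.963 in FT-LCG. These differences between clusters were not tested, since each cluster has 1 library per fibre type.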

How the results depend on the processing

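The best-matching cluster led for all 6 genes under resolutions 0.4 and 1.0, 20 components, 3000 variable genes, another seed, pathway genes allowed, a mean over cells, subtraction of 10% free RNA and without the CT-LCG library, although for *PTGES* under 20 components that cluster shared few cells with the KRT4 cluster (Jaccard index 0.258, level 2.20). The number was 5 with high Scrublet scores left out, with thinned cells and without the FT-LCG library, where macrophage-like cells led for *PTGER4*. It was 3 with no Harmony and 2 with cells of at least 1000 genes, because mast cell-like cells then numbered 18 and 6 in FT-LCG, under the limit of 20; with no limit they ranked first for *PTGS1*, *PTGS2* and *HPGD* again. With cells of at least 1000 genes the KRT4 cluster was also split, and its *PTGES*-rich group (2.57) led.

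Pairs more than 2-fold higher in CT-LCG fell from 18 to 10 of 49 (20.4%) at resolution 0.4, where 8 (16.3%) were higher in FT-LCG. With thinned cells only 23 pairs had enough UMIs, and 8 of these were higher in CT-LCG. That share was 34.8%, beside 30.5% in the main setting. Pairs higher in FT-LCG fell from 7 (11.9%) to 1 (4.35%) with thinned cells. Elsewhere these counts were 13 to 21 and 6 to 10. With no Harmony the *PTGES* log2 ratio in the matching cluster was 0.78 instead of -0.58, in a cluster that also shared few cells with the KRT4 cluster (0.269). Spearman's rho kept 3 of the 18 most alike genes, those of *PTGES*, and genes from 50 UMIs kept 15.

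Within the mast cell-like sub-cluster, chosen after seeing the data, the log2 ratio was -0.39 for *HPGD* (-1.27 in the cluster), 0.15 for *PTGS1* (-0.48) and 2.16 for *PTGS2* (1.40). In the whole cluster without the FT-LCG cell with most UMIs it was 0.80 for *PTGS2*. No paired analysis was possible because each fibre type has 1 library. Depth limited *PTGER2* most, with 12 and 19 UMIs.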
